A study of Homo sapiens with 6 samples.

Results

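A375 is an established human melanoma cell line. Its gene expression was measured on Illumina bead arrays after 3 days of culture with leflunomide at 25 µM, on 3 arrays, or with the solvent DMSO alone (0 µM leflunomide), on 3 arrays. The genes described here are 10 genes of cytokine signalling and its kinase targets: PIM1, PIM2, PIM3, SOCS1, SOCS2, SOCS3, CISH, STAT3, STAT5A and STAT5B. They were found by their symbols, or earlier names of them, among the 25438 named rows of the deposited signal table, and each of the 10 matched 1 row under its current symbol. The list was drawn up with results of this same comparison known: PIM1 was selected on its leflunomide over DMSO fold change in these arrays, and the other genes were named as its family and pathway with the results in view. Fold changes of the 10 genes are therefore given as a description. Calls that a limma fit over all genes makes among them, at an adjusted p under 0.05, are counted beside its calls over all genes, and nothing is read from them. The labels number the arrays 1 to 3 within each treatment but do not say whether they came from separate cultures, so spreads and p-values cover only these arrays and may be technical.

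Cytokines that bind their receptors activate JAK kinases, which phosphorylate STAT proteins, and phosphorylated STATs enter the nucleus as transcription factors. STAT3 is the main factor of the interleukin 6 family, and STAT5A and STAT5B serve receptors such as those of growth hormone, prolactin and interleukin 2. Genes that STATs switch on include those of the SOCS proteins and CISH, which bind receptors or JAKs and dampen the signal, and those of the PIM kinases, serine/threonine kinases that act on cell survival, cell cycle and translation and are active as soon as they are made. Leflunomide blocks the mitochondrial enzyme DHODH in the synthesis of pyrimidines, and its active metabolite is also known as an inhibitor of several kinases. The comparison asks which transcripts differ in cells grown with and without the drug.

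STAT3 and STAT5 dimers bind DNA at sites of the form TTCNNNGAA, a pattern that reads the same on both strands. RefSeq promoter windows of assembly GRCh38.p14 matched 9 of the 10 genes, all but SOCS2, with 12 windows in all. In the 250 bases before the start site, CISH was the only one of the 9 genes with a match, and it had 4, which begin at positions −241, −230, −129 and −112 from the start site. Over all 35116 windows of that length, 6.57% held at least 1 match and 0.0142% held 4 or more. The window of CISH, the gene with the most matches, and that of PIM1, the gene on whose fold change the list was built, are shown with matches in capitals. They lie at chr3:50611775-50612024 on the minus strand and at chr6:37169902-37170151 on the plus strand. A match is a run of letters and not a measured binding site, and a window without one says nothing about sites elsewhere.
CISH: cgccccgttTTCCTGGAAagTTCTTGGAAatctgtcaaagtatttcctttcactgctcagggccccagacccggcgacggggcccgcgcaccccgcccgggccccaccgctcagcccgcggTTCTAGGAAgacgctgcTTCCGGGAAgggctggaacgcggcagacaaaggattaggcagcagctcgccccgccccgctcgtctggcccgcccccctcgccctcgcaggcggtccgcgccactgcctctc
PIM1: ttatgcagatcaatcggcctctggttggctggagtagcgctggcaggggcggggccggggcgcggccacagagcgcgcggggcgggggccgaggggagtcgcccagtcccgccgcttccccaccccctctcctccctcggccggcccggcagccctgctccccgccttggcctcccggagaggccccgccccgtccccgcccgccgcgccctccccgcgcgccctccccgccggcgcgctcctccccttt

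The arrays differed in brightness, with mean signals of 129 to 343 on the leflunomide arrays and 318 to 371 on the DMSO arrays. Leflunomide replicate 3 was the dimmest and stood apart. Across genes, its correlation with each of the other 5 arrays in normalized log2 intensity was 0.888 to 0.900, while pairs of those 5 reached 0.988 to 0.997. Results are therefore given with and without this array. Among 8 melanocyte lineage markers, SOX10 was detected on all 6 arrays, MITF on 1, and DCT, MLANA, S100B, TYR and TYRP1 on none. PMEL, a melanosome protein gene, had normalized log2 intensities of 4.70, 4.62 and 5.03 with leflunomide, above background on replicate 3 only, against 6.05, 5.81 and 5.85 with DMSO, above background on all 3. It was called lower. Of 6 blood cell markers, 4 were detected on none of the arrays, PTPRC and CD3E among them, and CD14 and CD34 on 3 each, and neither of the 2 passed the test. KRT8, KRT14 and KRT18 of the 6 epithelial markers were detected on all arrays, and none of 4 tested passed with all 6 arrays. Without leflunomide replicate 3, 1 of the 4 was called lower, beside 9.91% of all genes. The summed normalized intensity of 6 fibroblast and endothelial markers was 306 to 331 with leflunomide and 248 to 266 with DMSO. PDGFRB was detected on all 6 arrays and was called higher, at a log2 fold change of 0.90. DCN lay lower on every leflunomide array, at 4.82, 5.15 and 5.24 against 5.77, 5.73 and 5.80 with DMSO, and was called lower only without leflunomide replicate 3. It was above background on all 3 DMSO arrays. With leflunomide it was above background on replicate 3 only, at detection p-values of 0.23, 0.14 and 0.0027 on replicates 1 to 3. That call therefore compares leflunomide arrays at background with DMSO arrays above it. COL1A2 and CDH5 were at background on all 6 arrays. The part of these marker differences in the results below was not tested.

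PIM1 was higher with leflunomide. PIM1, first known as a common integration site of a mouse leukaemia virus, encodes a kinase that is unstable and controlled mainly through its transcript. Its bead signal was 169.7, 240.5 and 96.1 on leflunomide replicates 1 to 3, against 127, 162 and 143 on DMSO replicates 1 to 3. The detection p-value of PIM1 was 0 on each leflunomide array, against 0.0013, 0 and 0 on the DMSO arrays. For this row it ranks the signal among the negative control beads of its own array. On the rows of PIM3, SOCS2, SOCS3 and STAT3 the detection p-values are not all such ranks, so they do not simply rank the signal shown. For STAT3 this was seen on leflunomide replicate 3, at 4.76e-08, which is within the tolerance used to pick rows with ranks. Raw signals follow the brightness of the array, so the low value of leflunomide replicate 3 became the highest after normalization. The normalized log2 intensities of PIM1 were 7.18, 7.28 and 7.59 with leflunomide, against 6.19, 6.36 and 6.41 with DMSO. All 3 leflunomide arrays lay above all 3 DMSO arrays. PIM1 was thus 2.04-fold higher with leflunomide (log2 fold change 1.03 ± 0.14 SE, 95% interval 0.68 to 1.37). It was 1.93-fold higher when leflunomide replicate 3 was left out (0.95 ± 0.11 SE). In bulk RNA, a change in the share of cells with a transcript cannot be told apart from a change in RNA per cell.

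The other PIM kinases overlapped between treatments. PIM2, the X-linked paralog with overlapping function, had signals of 489, 680.4 and 330.5 with leflunomide, against 619, 894 and 707 with DMSO, and was above background on every array. After normalization it stood at 8.98, 8.94 and 9.66 with leflunomide and at 8.86, 9.13 and 9.09 with DMSO. The groups overlapped, and only leflunomide replicate 3 lay above the DMSO range. The log2 fold change of PIM2 was 0.17, with a 95% interval of −0.36 to 0.70, and −0.06 (−0.30 to 0.18) without that array.

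PIM3, the third kinase of the family, was not detected on every array. Its signals were 108, 146 and 60.9 with leflunomide, at detection p-values of 0.045, 0.0019 and 0.35, against 131, 166 and 140.4 with DMSO, at 0.037, 0.00029 and 0.11. It was thus detected on 2 of 3 arrays of each treatment. On leflunomide replicate 3 and DMSO replicate 3, where it was not detected, its signals were above the negative control means of 36.8 and 58.9. The log2 fold change of PIM3 was 0.03 (95% interval −0.24 to 0.29), and the normalized values of the groups overlapped.

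A scaling factor shared by a whole array largely cancels in differences between paralogs within that array. It does not cancel fully, since the offset of 16 added after background correction shrinks differences more where signals are dim. Because each gene has its own probe, the size of such a difference says nothing about relative abundance. Its shift between treatments can be described within that limit of the offset. PIM1 minus PIM2 in normalized log2 intensity was −1.80, −1.66 and −2.08 on the leflunomide arrays, against −2.67, −2.76 and −2.67 on the DMSO arrays. The difference was higher on every leflunomide array than on every DMSO array, by 0.85 in the mean. It contains the PIM1 values by which the gene was selected and is a description. PIM3 was not used, since its detection p was not under 0.05 on 1 array of each treatment. In unnormalized signal, the ratio of PIM1 to PIM2 was 0.347, 0.353 and 0.291 with leflunomide, against 0.205, 0.181 and 0.202 with DMSO. These ratios still contain the background of each array.

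**Figure D1:**
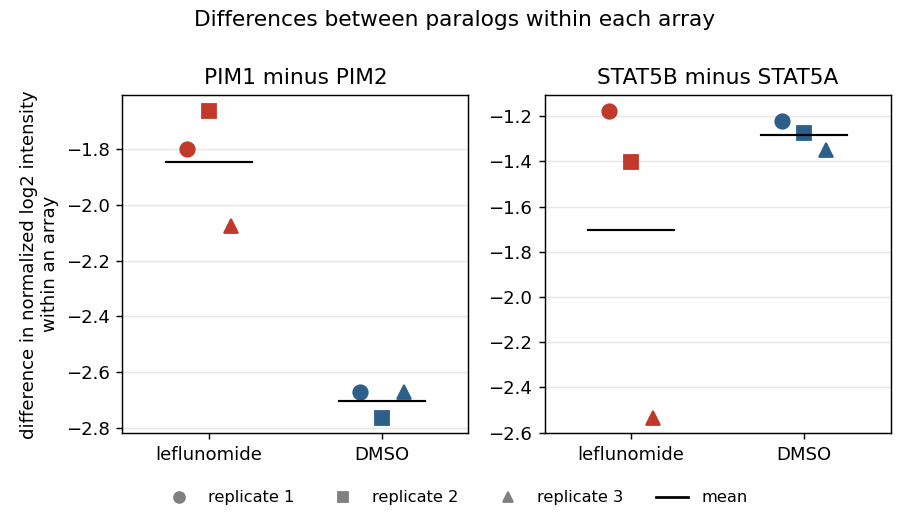
Difference in normalized log2 intensity between the named pair of genes within each array (vertical axis), for the 3 leflunomide arrays (left, red) and the 3 DMSO arrays (right, blue), with the mean as a line and the replicate number as the symbol. PIM1 stood higher relative to PIM2 on every leflunomide array, while STAT5B minus STAT5A lay outside the DMSO range on both sides, with leflunomide replicate 3 the lowest at −2.53.

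Among the feedback inhibitors, SOCS2 was lower with leflunomide. SOCS2 is best known as the brake on growth hormone receptor signalling, and mice without it grow large. Its signals were 167, 242 and 75.3 on leflunomide replicates 1 to 3, against 354, 464 and 342 on the DMSO arrays. Detection p-values were 3.47e-06, 7.81e-06 and 0.014 with leflunomide and 8.68e-07, 0 and 8.68e-07 with DMSO. The normalized log2 intensities of SOCS2 were 7.14, 7.29 and 7.02 with leflunomide, against 7.98, 8.12 and 7.95 with DMSO. All 3 leflunomide arrays lay below all 3 DMSO arrays. SOCS2 was 1.82-fold lower with leflunomide (log2 fold change −0.86 ± 0.12 SE, 95% interval −1.15 to −0.58). It was 1.76-fold lower without leflunomide replicate 3 (−0.81 ± 0.11 SE).

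The other 3 inhibitors were at or near background. SOCS3, the inhibitor most tied to interleukin 6 and STAT3, had signals of 66.9, 74.2 and 44.7 with leflunomide, against 66.5, 77.5 and 63.7 with DMSO. It was detected on 1 of 3 leflunomide arrays and 2 of 3 DMSO arrays, and its log2 fold change was 0.09 (95% interval −0.23 to 0.41). SOCS1, which blocks the JAK catalytic domain and restrains interferon signalling, had signals of 62.9, 66.6 and 38.5 with leflunomide, against 72.5, 67.2 and 63.8 with DMSO. Only DMSO replicate 1 was above background, at a detection p of 0.024, and no fold change is given.

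CISH, the founding member of the SOCS family and a standard readout of STAT5 activity, was not detected on any of the 6 arrays. Its signals were 61.4, 61.5 and 32.5 with leflunomide, at detection p-values of 0.12, 0.24 and 0.78. With DMSO they were 56.9, 63.6 and 60.3, at 0.36, 0.15 and 0.29. The negative control means were 56.5, 59.3 and 36.8 on the leflunomide arrays and 56.4, 59.1 and 58.9 on the DMSO arrays. The gene whose promoter window held 4 STAT-type matches was thus at the level of the negative controls under both treatments. An array signal at background limits what can be seen and does not show that the transcript is absent.

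**Figure D2:**
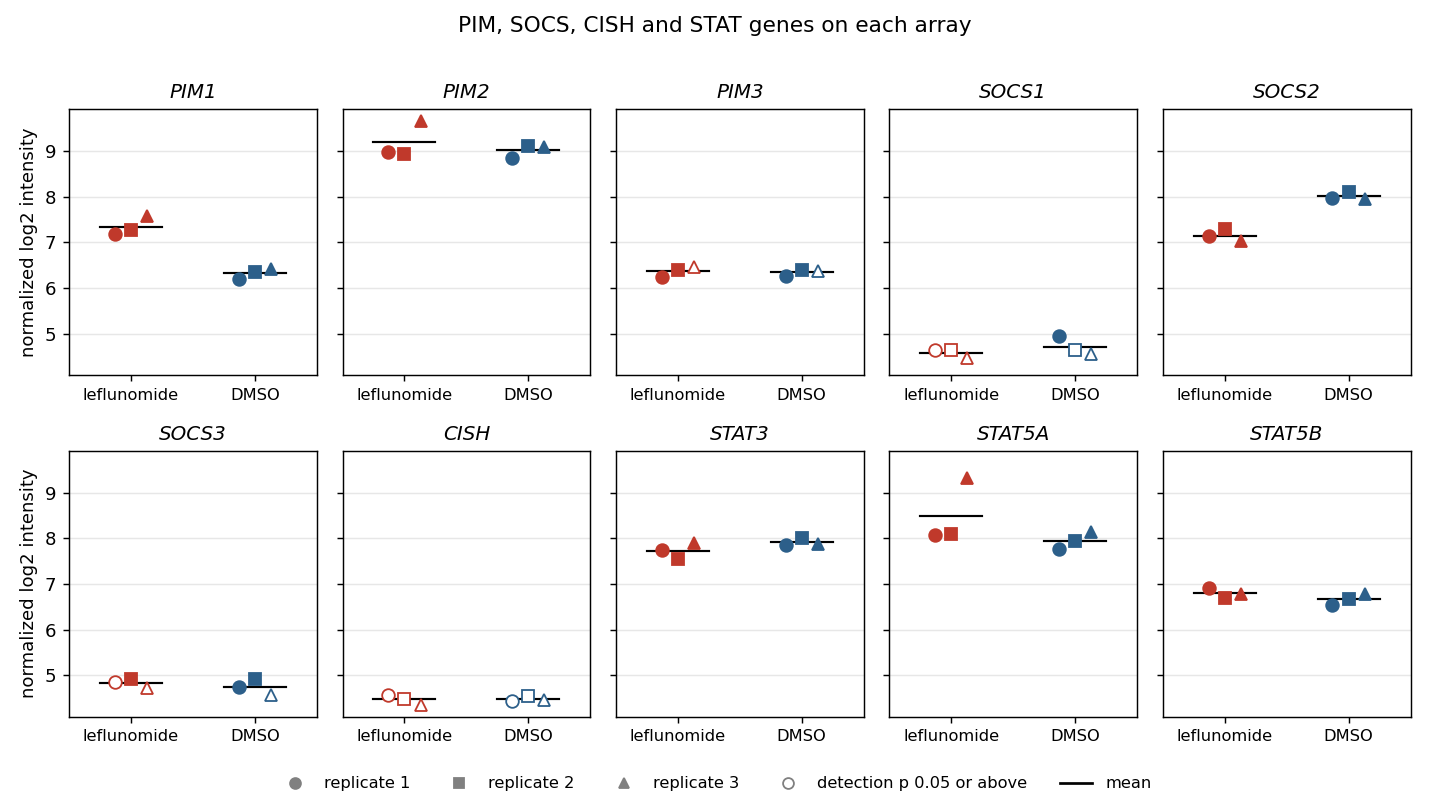
Normalized log2 intensity (vertical axis, the same in every panel) of each of the 10 genes on the 3 leflunomide arrays (left, red) and the 3 DMSO arrays (right, blue). Open symbols mark detection p-values of 0.05 or above, lines mark means and symbol shapes mark replicates. The groups separate in PIM1, which is higher, and SOCS2, which is lower with leflunomide, while CISH has open symbols throughout.

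The STAT genes themselves overlapped between treatments. STAT5B, STAT5A and STAT3 lie next to each other among the coding genes of chromosome 17. STAT3 had signals of 230.3, 282 and 113 with leflunomide, against 326, 438 and 327 with DMSO. Its normalized log2 intensities were 7.75, 7.54 and 7.90 with leflunomide, against 7.85, 8.01 and 7.88 with DMSO. Leflunomide replicates 1 and 2 lay below the DMSO range and replicate 3 lay within it. The log2 fold change of STAT3 was −0.18 (95% interval −0.50 to 0.14), and −0.27 (−0.51 to −0.03) without leflunomide replicate 3.

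STAT5A and STAT5B are close paralogs with largely shared functions, and the probe sequences were not used here, so cross-hybridization between them was not examined. STAT5A had signals of 279.8, 394 and 263 with leflunomide, against 310, 417 and 388 with DMSO. Its normalized log2 intensities were 8.08, 8.09 and 9.32 with leflunomide and 7.76, 7.94 and 8.13 with DMSO. Leflunomide replicate 3 alone lay above the DMSO range. The log2 fold change of STAT5A was 0.55 (95% interval −0.31 to 1.41) with that array and 0.14 (−0.12 to 0.40) without it.

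STAT5B, the form most tied to growth hormone signalling in the liver, had signals of 147, 172 and 68.2 with leflunomide, against 152, 194 and 173 with DMSO. Its normalized log2 intensities were 6.90, 6.69 and 6.79 with leflunomide and 6.54, 6.67 and 6.78 with DMSO, and the groups overlapped. The log2 fold change of STAT5B was 0.13 (95% interval −0.16 to 0.41) with all arrays and 0.14 (−0.11 to 0.39) without leflunomide replicate 3.

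Of the 10 genes, 8 were detected on at least 3 of the 6 arrays and entered the fit of limma, a linear model with moderated variances, over 12345 genes. At a Benjamini-Hochberg adjusted p under 0.05 over all genes, 1 of the 8 was called higher, PIM1, and 1 lower, SOCS2, and 6 did not pass. Over all genes, 0.194% were called higher and 0.794% lower. Without leflunomide replicate 3, 1 was called higher and 1 lower, while 9.25% of all genes were called higher and 9.91% lower. Without any 1 of the other 5 arrays, none of the 8 was called. The groups did not overlap in 1 gene that was higher and 1 that was lower, while over all genes 14.5% were higher and 15.3% lower without overlap. Because the genes were listed with this comparison known, nothing is read from these counts. The median log2 fold change of the 8 was 0.11, against −0.003 over all genes tested.

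**Figure D3:**
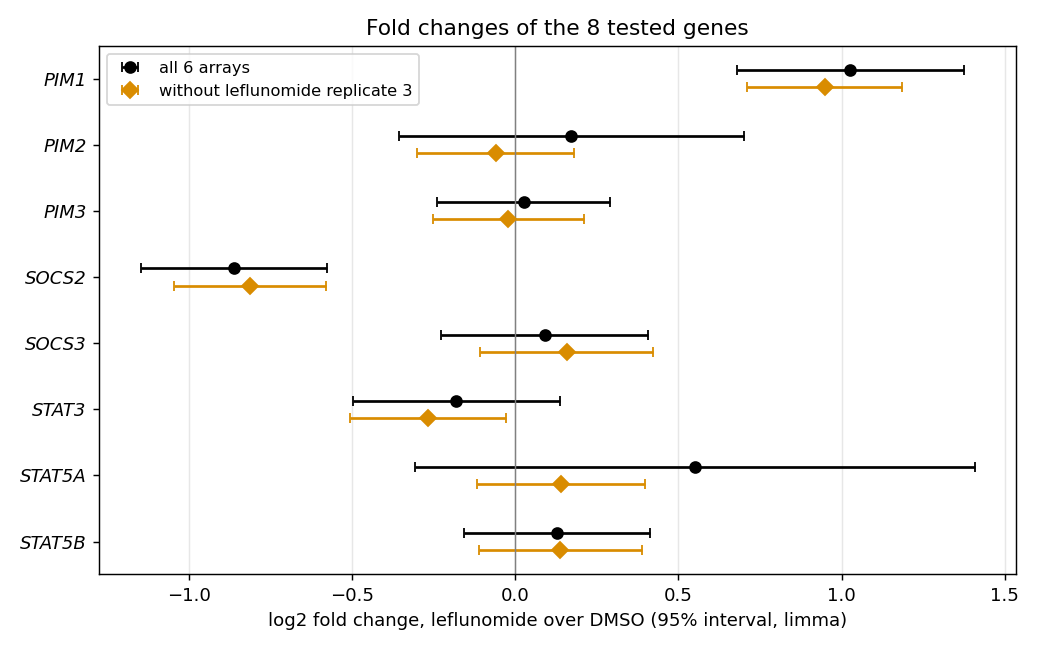
Log2 fold change of leflunomide over DMSO (horizontal axis) with its 95% interval from limma for the 8 tested genes, from all 6 arrays (black circles) and without leflunomide replicate 3 (orange diamonds). PIM1 lies near 1.03 and SOCS2 near −0.86 in the fit of 6 arrays, and the interval of STAT5A is the widest of the 8, from −0.31 to 1.41.

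Median scaling of the arrays, tried instead of quantile normalization, moved the median of all genes to −0.55. Against that shift, PIM1 was 0.89 higher and SOCS2 1.03 lower, on the log2 scale, while PIM2, PIM3 and STAT5B were at −0.04, −0.07 and 0.002. STAT3 was at −0.39, STAT5A at 0.33 and SOCS3 at 0.56 relative to the same median. SOCS3, near background, was at 0.09 in the main fit, so the shift was not the same for every gene. Before that median was subtracted, PIM1 was at 0.34 and SOCS2 at −1.58, and neither was called. With median scaling and without leflunomide replicate 3, PIM1 stood 0.89 above and SOCS2 0.88 below the median of all genes.

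The rest of the pathway was followed in 7 lists with 132 genes, of which 81 were tested. Limma called none higher and 4 lower, beside 0.194% and 0.794% of all genes, and 77 did not pass. At an unadjusted p under 0.05, 6 were higher and 14 lower, against 1031 and 1039 of the 12345 genes. Without leflunomide replicate 3, 11 of the 81 were called higher and 19 lower, beside 9.25% and 9.91% of all genes. The median log2 fold change of the 81 was −0.12 with all arrays and −0.07 without that array.

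Cytokine ligands held 3 of the 4 decreases, among 11 tested genes, beside 0.794% of all genes called lower. IL24, of the interleukin 10 family, signals through JAKs and STAT3, and its log2 fold change was −3.27 ± 0.13 SE (limma adjusted p = 0.00059). IL6, the founding ligand of the STAT3 pathway, was at −1.75 ± 0.25 SE (limma adjusted p = 0.044). Its normalized log2 intensities were 10.21, 10.26 and 9.39 with leflunomide, against 11.64, 11.86 and 11.61 with DMSO. CSF2, the ligand GM-CSF of a STAT5-coupled receptor, was at −1.27 ± 0.15 SE (limma adjusted p = 0.027). Its values were 9.97, 10.17 and 9.73 with leflunomide, against 11.08, 11.35 and 11.25 with DMSO. In all 3 ligands the leflunomide arrays lay below the DMSO arrays. None of the 3 calls held under median scaling, where the limma adjusted p was 0.185 for IL24 and 0.39 for IL6 and CSF2. The calls of IL6 and CSF2 were also lost in the fit with a replicate block (limma adjusted p = 0.137 each). They were lost as well without any 1 array other than leflunomide replicate 3, at limma adjusted p-values of 0.108 to 0.25 for IL6 and 0.0717 to 0.196 for CSF2. With no detection filter IL6 had a limma adjusted p of 0.0606. Without leflunomide replicate 3, IL12A and IL23A, named after their values were seen, were also called lower, and none of the 11 was called higher. That fit called 9.25% of all genes higher and 9.91% lower. IL12A was above background on leflunomide replicates 1 and 2 and all 3 DMSO arrays, and was at −1.10 in that fit. IL23A was above background on all 3 DMSO arrays but on leflunomide replicate 2 alone, so no value is given.

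None of the 22 tested receptor genes passed with all 6 arrays. At an unadjusted limma p under 0.05 there were 3, against 2070 of 12345 genes. IL6ST, the gp130 subunit shared by the interleukin 6 family, was above background on 1 of 3 leflunomide arrays and on all 3 DMSO arrays, so its difference was not measured on both sides (limma adjusted p = 0.32). IL7R, the interleukin 7 receptor chain, had signals of 493, 746 and 44.1 with leflunomide, against 1396, 1583 and 1312 with DMSO. The value of leflunomide replicate 3 was at background, at a detection p of 0.5. IL7R was at −2.45 ± 1.17 SE with that array (limma adjusted p = 0.36) and at −0.997 ± 0.101 SE without it (limma adjusted p = 2.44e-05). IL20RB, a receptor chain for IL24, was at 0.65 ± 0.37 SE (limma adjusted p = 0.43), short of the threshold. Once that array was left out, 6 of the 22 receptor genes were called lower and 1 higher, beside 9.91% and 9.25% of all genes.

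Neither the JAK kinases nor the other STATs passed with all 6 arrays. JAK2, which serves growth hormone and GM-CSF receptors, was at −0.36 ± 0.10 SE (limma adjusted p = 0.17), and JAK1 and TYK2 were at −0.12 each. STAT2, a factor of interferon signalling, was at −0.33 ± 0.18 SE (limma adjusted p = 0.41). Without leflunomide replicate 3, JAK2 (−0.35) and STAT2 (−0.50) were called lower. STAT4, named after its values were seen, was called higher at 0.52 in that fit, and stood at 0.05 with all arrays. On leflunomide replicate 3 STAT4 was not above background, at a detection p of 0.20.

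Other negative regulators were not called with 6 arrays, in 12 tested genes. SOCS4, another member of the SOCS family, was at −0.35 ± 0.13 SE (limma adjusted p = 0.27). PTPN1, a phosphatase that acts on JAK2 and TYK2, had a signal of 12.3 on leflunomide replicate 3, below the negative control mean of that array, against 1189.6 to 2011 on the other 5 arrays. Its log2 fold change was −1.88 ± 1.62 SE with that array and 0.13 ± 0.13 SE without it. The 12 genes held 1 increase and no decrease past the threshold in the fit of 5 arrays, beside 9.25% and 9.91% of all genes.

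None of 16 tested STAT target genes passed with all arrays, and 4 had an unadjusted limma p under 0.05, against 2070 of 12345 genes. The fit of 5 arrays called 4 higher and 4 lower, beside 9.25% and 9.91% of all genes. BCL2L1, which encodes the survival protein BCL-XL, had a signal of 30.1 on leflunomide replicate 3, against 1031 to 2061 on the other arrays. Its log2 fold change was −2.26 ± 1.55 SE with that array included and −0.32 ± 0.10 SE otherwise (limma adjusted p = 0.042). The immediate early gene FOS was not above background on leflunomide replicate 3, at a detection p of 0.145. It was at −1.12 ± 0.36 SE over the 6 arrays (limma adjusted p = 0.20) and at −0.76 ± 0.12 SE without that array (limma adjusted p = 0.0011).

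Genes of PIM substrates were described for their transcripts, since PIM kinases act on the proteins. Of 14 tested, 1 was called lower, CDKN1A, and 13 did not pass, beside 0.794% of all genes called lower. CDKN1A encodes the cell cycle inhibitor p21, and its log2 fold change was −2.13 ± 0.13 SE (limma adjusted p = 0.0052). The call was lost under median scaling (limma adjusted p = 0.185), with the replicate block (0.0744), without leflunomide replicate 1 (0.0601) and without each DMSO array in turn (0.0712 to 0.0841). Without leflunomide replicate 3, 4 of the 14 were called higher and CDKN1A alone lower, beside 9.25% and 9.91% of all genes.

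**Figure D4:**
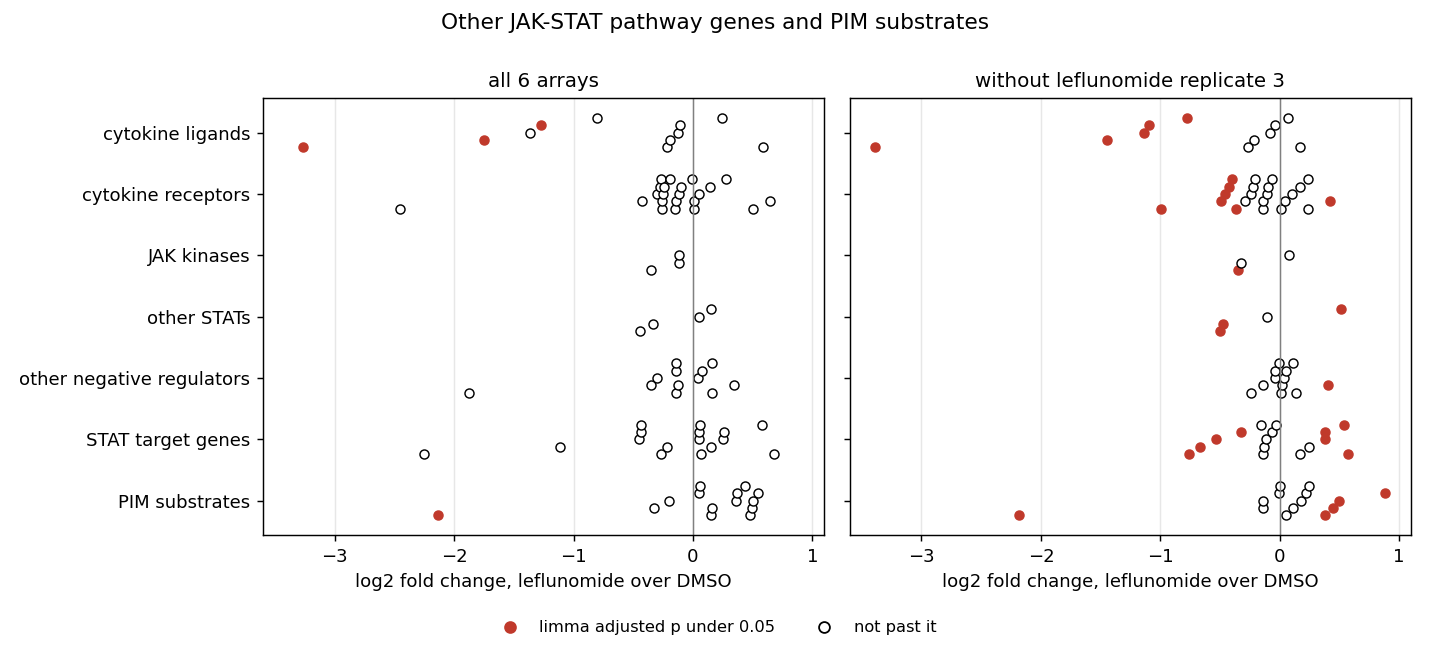
Log2 fold change of leflunomide over DMSO (horizontal axis) of each tested gene in 7 lists, from all 6 arrays (left) and without leflunomide replicate 3 (right), with genes past a limma adjusted p of 0.05 filled in red. Points are spread vertically only to separate them. The 4 called genes on the left all lie below 0, and 11 higher and 19 lower genes are called on the right.

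The genes whose pattern over the 6 arrays was most like that of PIM1 were ZNF395, H3-3B, DHRS3, FZD2 and NMU. Likeness was the root mean square difference in log2 intensity after each gene was centred on its DMSO mean, which was 0.11 to 0.13 for these 5 and 0.76 for the median gene. DHRS3, a retinal reductase gene, stood at 10.51, 10.42 and 11.003 with leflunomide, against 9.40, 9.51 and 9.60 with DMSO. ZNF395 stood at 9.12, 9.27 and 9.85 with leflunomide, against 8.29, 8.38 and 8.38 with DMSO. The Wnt receptor gene FZD2 stood at 8.64, 8.71 and 9.39 with leflunomide, against 7.88, 7.98 and 8.04 with DMSO. H3-3B, a histone H3.3 gene, stood at 9.84, 10.09 and 10.04 with leflunomide, against 8.88, 8.91 and 9.11 with DMSO. NMU, the gene of the peptide neuromedin U, stood at 7.76, 7.78 and 7.97 with leflunomide, against 6.79, 6.68 and 6.69 with DMSO. The highest value was on leflunomide replicate 3 in 4 of the 5 genes and on replicate 2 in H3-3B. They were chosen for likeness, so their differences are a description.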

How the data were processed

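The members and gene lists were chosen with earlier results of these data known. The main deposited table holds intensity values, the mean bead signal of each gene row, per the file headers, on a linear scale and unnormalized, as the unequal array means show. GenomeStudio produced it, per the submitters' processing notes, while a version or genome build is not given in the sources used here. A detection p-value of every signal was deposited by the authors too. A second deposited table holds intensity values of single probes scaled to a common mean, with no IDs shared with the first, so only its scaling factor per array was used.

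Signals were background-corrected by normexp in limma 3.58.1 (R 4.3.3), with negative control parameters inferred from the 32290 rows whose detection p-values are whole multiples of 1/759 (tolerance 0.001 of a rank, then rounded to the rank), an offset of 16 and quantile normalization. The offset understates fold changes of dim genes. Genes with a detection p under 0.05 on at least 3 of 6 arrays were kept. Of 25438 named rows, 14193 had a current symbol in the RefSeq table of GRCh38.p14, 3625 were renamed through a synonym and 7598 kept their name. A further 22 were dates, and the brightest row was kept where names joined, which left 12345 genes. The contrast of leflunomide minus DMSO was tested with lmFit and eBayes of limma, with no block, and p-values were adjusted over all genes (Benjamini-Hochberg). The procedure was tested on simulated data. The number of arrays limits the precision.

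Named pathway genes are those past the threshold, up to 5 a list, or otherwise the 2 with the largest change, and IL6ST, JAK1, JAK2, TYK2 and IL6. Some results for single genes are not reported here. Alternatives were other background corrections, normalizations, filters and variance models, array weights, a replicate block and leaving out each array. Same-numbered arrays deviated together at correlations of −0.0086, 0.204 and 0.211. Across treatments, 4 of the 6 arrays correlated best with their own number. These values do not settle whether the numbers pair the arrays. The main fit has no block, and results of the fit with a replicate block are given beside it.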

Additional observations from a re-analysis of the deposited data

How the results depend on the processing

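Among the 10 genes the counts of calls are a description, since the genes were listed with this comparison known. The count of 1 gene higher (PIM1) and 1 lower (SOCS2) among the 8 tested was the same under both other background corrections, both other detection filters, array weights, trended robust variances, unrounded detection p-values and the scaling factors of the second table, although PIM3 and SOCS3 were not tested under the filter for detection on all 6 arrays. The last pair and median scaling without leflunomide replicate 3 were chosen after seeing the data. A planned fit of the second table itself was not run, since its rows could not be matched to genes. The count was 0 and 0 under median scaling and with the replicate number as a block (replicate block). At an unadjusted p under 0.05, limma had 0 higher and 1 lower under median scaling, and 1 higher and 1 lower with the block. Without 1 array it ranged from 0 to 1 in each direction, with 1 and 1 only without leflunomide replicate 3. Over 17 alternatives PIM1 ran from 0.34 (median scaling) to 1.11 on the log2 scale and SOCS2 from −1.58 (median scaling) to −0.67. The median of the 8 was −0.57 under median scaling, where the median of all genes was −0.55. Under median scaling without leflunomide replicate 3 the median of the 8 was −0.20, where that of all genes was −0.19. The cause of these shifts was not tested.

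Pathway genes called lower numbered 4, against 0 under median scaling, 1 with the replicate block, 18 with array weights and 14 under median scaling without leflunomide replicate 3. In the last of these settings the median log2 fold change of all genes was itself −0.19, so nothing is read from the 14. Pathway genes called higher numbered 0, against 11 with array weights. Without 1 array the counts ranged from 0 to 11 higher and from 1 to 19 lower, with the highest counts without leflunomide replicate 3. Of all genes, limma called 24 higher and 98 lower, against 0 and 4 with the replicate block and 1213 and 1321 with array weights, whose estimation stopped short of its convergence tolerance. In 4 of the 6 arrays the highest correlation with the other treatment was with the same number. Array signals near background limit SOCS1, SOCS3 and CISH, and PIM3 had a detection p under 0.05 on only 4 arrays.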
